A study of Arabidopsis thaliana with 8 samples.

Results

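Transcripts of AT4G22490, AT5G59330 and AT5G55450, genes of the lipid-transfer protein family, were followed across shoot apices of wild-type Arabidopsis thaliana and of mutants that lack several YABBY genes. These 3 genes were chosen because earlier results on the same arrays had shown low signals for them in the mutants. Their differences from wild type are therefore given as a description, with no test. Each gene is named by 1 probe set that names no other gene, so 3 of the 13286 genes with such a probe set are described, from 22746 probe sets outside the array controls. The probe set identifiers are 254327_at for AT4G22490 on chromosome 4, 247713_at for AT5G59330 on chromosome 5 and 248062_at for AT5G55450 on chromosome 5.

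Plant lipid-transfer proteins are small, secreted proteins held together by disulphide bridges around a pocket that binds fatty acids and related lipids. Many are made in the epidermis of shoots, where they are thought to carry wax and cutin monomers to the cuticle, and others act in defence signalling. YABBY proteins are transcription factors of lateral organs. FILAMENTOUS FLOWER (FIL) and YAB3 act redundantly on the abaxial side of leaf primordia, and YAB5 adds to their activity in leaf lamina growth.

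Every sample was total RNA from apices of plants of the Ler ecotype, taken at 14 days after sowing under short days and hybridised to 1 single-colour Affymetrix array. Wild type was measured on 4 arrays. The genotype labelled fil-8 yab3-2, called the double mutant here, was measured on 2 arrays, and fil-8 yab3-2 yab5-1, the triple mutant, on 2. The triple mutant thus carries the same fil and yab3 alleles as the double mutant and differs from it by label in YAB5. Whether the RNA on arrays of the same genotype came from separate plantings or pools of plants is not labelled. The p-values therefore reflect only array-to-array spread, which may be technical. In whole apices, fewer cells of a type and less RNA per cell cannot be told apart.

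Values are deposited log2 signals, which run from a floor of 2.1 to 15.8, and a probe set was tested if it exceeded 4 on at least 2 arrays. The wild-type arrays stood apart in pairs: over the 13888 tested probe sets, Pearson's r within the pair of arrays 1 and 2, and within that of arrays 3 and 4, was 0.970, and it was 0.861 to 0.888 across pairs. Of 45 probe sets for bacterial and phage control transcripts, 42 had their highest signals on wild-type arrays 1 and 2. Results are therefore given against each pair as well. Markers of the apex were mostly not analysed here: of 9 apical genes listed, CLV3, a peptide of the stem cell region, was the only one with a probe set naming it. CLV3 lay at 2.1, 2.16, 2.59 and 2.19 in wild type, at 4.32 and 3.89 in the double mutant and at 2.19 on both triple mutant arrays, so this defining marker was near the floor in wild type. EXPA7, an expansin of root hairs and the only one of 6 root markers with a probe set naming it, was at 2.1 on all 8 arrays. No leaf or flower marker on the lists had one in the matching of probe sets to genes used here.

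The genotype labels were checked first on the mutated genes. YAB3 signal was 8.46, 8.35, 9.48 and 8.91 on the wild-type arrays, 3.35 and 4.99 on the double mutant arrays and 4.4 and 5.50 on the triple mutant arrays. All mutant arrays lay below all wild-type arrays, and both differences passed in limma: the double mutant's was -4.63 ± 0.55 (SE, adjusted p = 0.033) and the triple mutant's -3.85 ± 0.55 (adjusted p = 0.013). YAB5 lay at 7.52, 7.17, 5.51 and 5.32 in wild type, 6.03 and 5.60 in the double mutant and 5.28 and 5.02 in the triple mutant. The triple mutant arrays were lowest for YAB5, but the higher of them was within 0.04 log2 units of wild-type array 4, and the difference of -1.23 ± 0.66 (SE) from wild type did not pass (limma adjusted p = 0.358). It was -2.20 against wild-type arrays 1 and 2, which passed (adjusted p = 0.0042 in limma), and -0.26 against arrays 3 and 4 (adjusted p = 0.49). The double mutant, whose label names no yab5 allele, also passed for YAB5 against arrays 1 and 2, at -1.53 (limma adjusted p = 0.0202). Passing against that pair thus did not set the triple mutant apart. FIL was not analysed here.

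AT4G22490 was bright in wild type and at or near the floor in both mutants. Its signal was 11.25, 11.31, 13.09 and 12.26 on the 4 wild-type arrays, 2.16 and 4.52 on the double mutant arrays and 2.16 on both triple mutant arrays. The lowest wild-type array exceeded the highest mutant array by 6.73 log2 units. The group means were in the order wild type at 11.98 ± 0.87 (SD, n = 4), double mutant at 3.34 ± 1.67 (n = 2) and triple mutant at 2.16 ± 0.00 (n = 2). The double mutant differed from wild type by -8.64 ± 0.74 log2 units, with the SE taken from the fit over all probe sets, and the triple mutant by -9.82 ± 0.74. Because both triple mutant arrays lay below a log2 signal of 4, its fold change is given as a bound, at least 252-fold lower. Between the mutants the arrays overlapped. Double mutant array 1 was at the same value as the triple mutant arrays within 0.01 log2 units, and the difference of -1.18 ± 0.85 came from double mutant array 2. Without double mutant array 2 it was 0.00, and without array 1 it was -2.37.

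AT5G59330 was at or near background in both mutants, with 1 of the 4 mutant arrays above a log2 signal of 4, so the order of the mutants could not be measured. Its signal was 9.31, 9.72, 11.06 and 10.42 in wild type, 3.01 and 3.65 in the double mutant and 4.45 and 2.26 in the triple mutant. All 4 mutant arrays lay at least 4.86 log2 units below the lowest wild-type array, and the range of the triple mutant arrays enclosed both double mutant arrays. Wild type averaged 10.13 ± 0.77 (n = 4), the double mutant 3.33 ± 0.45 (n = 2) and the triple mutant 3.36 ± 1.55 (n = 2). The differences from wild type were -6.80 ± 0.69 and -6.77 ± 0.69 log2 units, the first of which stands as at least 70.0-fold lower since both double mutant arrays lay below 4. The mutants differed from each other by 0.02 ± 0.80. That value rests on 2 arrays per mutant: it was -1.07 without triple mutant array 1 and 1.12 without array 2.

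AT5G55450 followed another course, with an intermediate signal in the double mutant. It lay at 7.52, 7.50, 10.07 and 10.19 on the wild-type arrays, at 7.20 and 6.32 on the double mutant arrays and at 3.03 on both triple mutant arrays. The groups did not overlap and were ordered wild type, double mutant, triple mutant. The gap between wild type and the double mutant was narrow, 0.30 log2 units from the lowest wild-type array to double mutant array 1, while the wild-type arrays alone spanned 2.69. The means were 8.82 ± 1.51 (n = 4), 6.76 ± 0.63 (n = 2) and 3.03 ± 0.00 (n = 2). Both triple mutant arrays held the same value below 4, so the SD of 0.00 does not measure a spread of signal. The double mutant differed from wild type by -2.06 ± 0.88 and the triple mutant by -5.79 ± 0.88, or at least 28.3-fold lower. From double to triple mutant the difference was -3.73 ± 1.01, at least 6.77-fold lower.

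**Figure D1:**
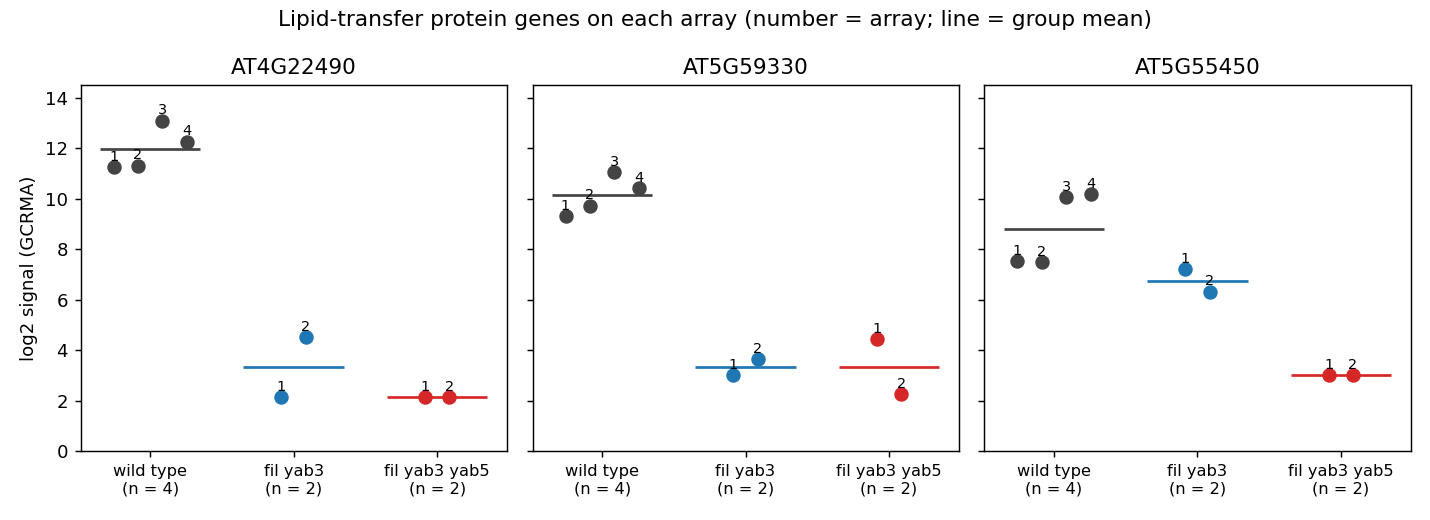
Log2 signal of the 3 lipid-transfer genes on each array, with points numbered by array and a line at each group's mean (wild type n = 4, fil yab3 n = 2, fil yab3 yab5 n = 2). AT4G22490 and AT5G59330 lie at or below 4.52 on all mutant arrays, while AT5G55450 lies at 7.20 and 6.32 in fil yab3 and at 3.03 in fil yab3 yab5.

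For all 3 genes the 4 mutant arrays lay below the 4 wild-type arrays, an order that held for 4.64% of the 13888 tested probe sets. The double mutant alone lay below wild type without overlap in 6.37% and the triple mutant in 17.5%, and the triple lay below the double mutant, as for AT5G55450, in 27.4%. The genes were chosen from these contrasts, so nothing is read from these shares. The comparisons of both mutants with wild type share the wild-type arrays.

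The choice of wild-type arrays bore on AT5G55450 far more than on the others. Signals of all 3 genes on wild-type arrays 3 and 4 exceeded those on arrays 1 and 2, by a mean of 1.39 log2 units for AT4G22490, 1.23 for AT5G59330 and 2.62 for AT5G55450. Such an order, with both arrays of the second pair above both of the first, was seen in 36.5% of tested probe sets, and with a mean gap of over 1 log2 unit in 11.2%. Against wild-type arrays 1 and 2 the double mutant difference of AT5G55450 was -0.75, and against arrays 3 and 4 it was -3.37. In the triple mutant AT5G55450 differed by -4.48 from the first pair and by -7.10 from the second. For AT4G22490 the double mutant differences were -7.94 and -9.34 and the triple mutant differences -9.12 and -10.52. For AT5G59330 they were -6.18 and -7.41 in the double mutant and -6.16 and -7.39 in the triple mutant. The spike-in controls and the pairs of wild-type arrays moved together, and their part in the AT5G55450 difference was not tested.

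**Figure D2:**
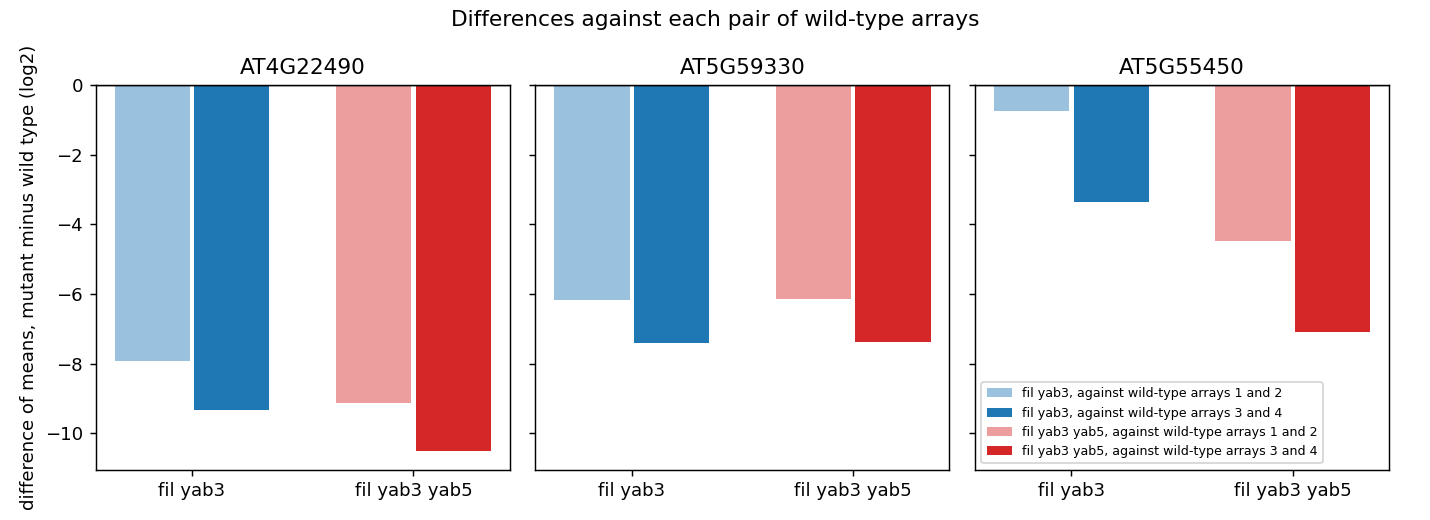
Difference of means, mutant minus wild type, in log2 units for each gene, with pale bars against wild-type arrays 1 and 2 and full bars against arrays 3 and 4 (2 arrays in every mean). AT5G55450 in fil yab3 runs from -0.75 to -3.37, while the fil yab3 bars of AT4G22490 and AT5G59330 all lie below -6.

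Signals of AT4G22490 and AT5G59330 ran in parallel across the arrays, with Pearson's r = 0.980 over 8 arrays and 0.975 over the 6 arrays without wild-type arrays 1 and 2. AT5G55450 correlated with them at 0.828 and 0.792. The arrays fall into genotypes with large steps between them, so these values describe mainly those steps. Within the mutants the parallel was not complete: AT4G22490 was highest on double mutant array 2 and AT5G59330 on triple mutant array 1.

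The genes most like each of them were sought among 7419 tested genes by Pearson's r over the 8 arrays, as a description. For AT4G22490 they were AT1G55690 (r = 0.982), AT5G59330, GR, which encodes a glutathione reductase (0.971), AT4G24830 (0.969) and YAB3 itself (0.967). For AT5G59330 they were AT4G22490, AT4G24830 (0.969), AT1G55690 (0.961), CFM3A, a member of the CRM family of RNA-binding proteins (0.958), and GR (0.952). YAB3 ranked in place 7 for AT5G59330, at 0.942.

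A high r did not mean a like size of change. AT1G55690 went from a mean of 8.28 ± 0.24 (n = 4) in wild type to 6.28 in the double and 6.27 in the triple mutant. GR went from 11.92 ± 0.07 to 11.45 and 11.25, and AT4G24830 from 10.58 ± 0.05 to 10.27 and 10.25. Of the genes named for AT4G22490, AT5G59330 and YAB3 alone fell by over 3 log2 units in both mutants.

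AT5G55450 had a different set of most similar genes, and YAB3 ranked in place 630 for it with r = 0.702. AT3G28460 (r = 0.989) lay at 10.11, 9.90, 10.67 and 10.59 in wild type, at 9.90 on both double mutant arrays and at 8.82 on both triple mutant arrays. It thus had lower signals on wild-type arrays 1 and 2 and a step from double to triple mutant, on a smaller scale. Its double mutant arrays were level with wild-type array 2. Since both arrays of each mutant repeat a value, this r rests partly on tied values. The others were AT5G55220 (0.977), AT3G28420 (0.967), CCT2, an enzyme of phosphatidylcholine synthesis (0.960), and AT5G52070 (0.959). CCT2 means were 7.89 ± 0.14 (n = 4), 7.42 and 6.97, and those of AT3G28420 were 5.04 ± 0.53, 4.49 and 2.95. Without wild-type arrays 1 and 2, r was 0.966 to 0.992 for these 5 genes. YAB5 signal correlated with AT5G55450 at 0.264 over 8 arrays and 0.398 over 6, with AT4G22490 at 0.437 and -0.061, and with AT5G59330 at 0.413 and -0.072. AT5G55450 thus had the lowest r with YAB5 of the 3 genes over all 8 arrays, but the highest over the 6 without wild-type arrays 1 and 2.

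**Figure D3:**
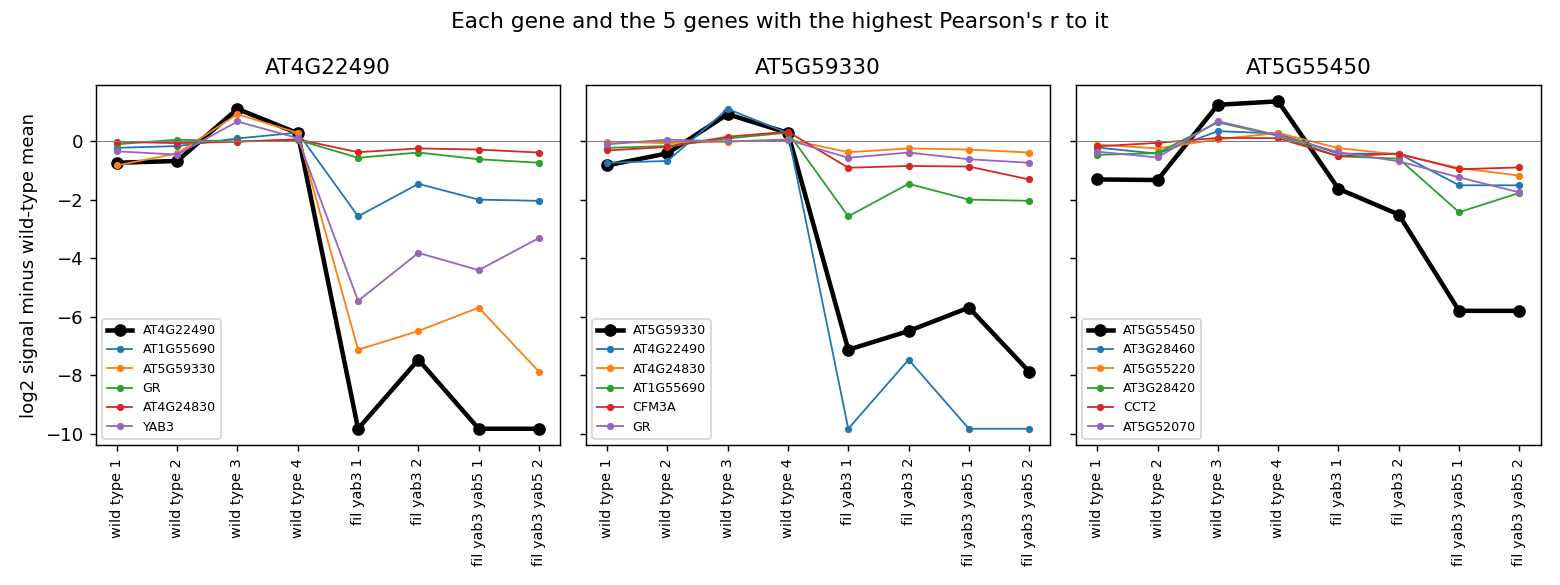
Log2 signal minus the wild-type mean on each of the 8 arrays for each lipid-transfer gene (black) and the 5 genes with the highest Pearson's r to it. The black lines are low on all mutant arrays for AT4G22490 and AT5G59330 and step down from double to triple mutant for AT5G55450, while most of the similar genes move by smaller amounts.

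Other genes of the family gave a background for these values. Of 91 genes on a list of lipid-transfer proteins, 44 had a probe set naming no other gene. Besides the 3 genes above, 12 were bright enough to be tested and 29 were not, 28 of these at or below 4 on all 8 arrays. With limma and p-values adjusted over all tested probe sets, none of the 12 was called in the double mutant, where 0.072% of all tested probe sets were called lower, 0.0936% higher and 0.166% in either direction. At an unadjusted p under 0.05 in limma, 4 of them differed from wild type in that comparison, against 6.94% of tested probe sets. In the triple mutant 1 of the 12 was called lower, against 1.66% of tested probe sets, and 1 higher, against 2.22% (3.87% in either direction), and 5 had an unadjusted p under 0.05 in limma, against 20%. Between the mutants none was called, against 0.13% lower, 0.547% higher and 0.677% in either direction, and 1 had an unadjusted p under 0.05 in limma, against 8.58%. Without overlap, 1 of the 12 was lower and 3 were higher in the double mutant (6.37% and 8.61% of tested probe sets). In the triple mutant 3 were lower and 4 higher (17.5% and 15.5%), and from double to triple mutant 5 were lower and 2 higher (27.4% and 20.2%). All 4 mutant arrays lay below all wild-type arrays for 1 of the 12 (4.64% of tested probe sets) and above them for 3 (5.47%). The median difference of the 12 was 0.29 in the double and -0.52 in the triple mutant, against 0.01 and -0.03 over all tested probe sets. Differences were negative in 5 of the 12 in the double and in 7 in the triple mutant, so the other tested genes of the list did not share a direction.

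AT5G05960 was the only gene of the 12 that was called lower in the triple mutant. Its signal was 9.27, 8.29, 7.06 and 8.49 in wild type, 5.25 and 4.20 in the double mutant and 4.03 and 5.26 in the triple mutant, so all mutant arrays were below all wild-type arrays. The triple mutant difference was -3.63 ± 0.65 (limma adjusted p = 0.029). The double mutant difference was nearly as large, -3.55 ± 0.65, and did not pass (adjusted p = 0.194), and the mutants differed by -0.08 ± 0.75 (adjusted p = 1.0). Against wild-type arrays 1 and 2 alone the double mutant difference was -4.05 and passed (limma adjusted p = 0.0151). The replicate block rests on the same wild-type arrays, gave the same difference and passed too (adjusted p = 0.0342). Against arrays 3 and 4 the double mutant difference was -3.05 (adjusted p = 0.166). No other gene of the 12 had all 4 mutant arrays below wild type. Unlike the 3 genes above it was not higher on wild-type arrays 3 and 4, where its signals of 7.06 and 8.49 compare with 9.27 and 8.29 on arrays 1 and 2. Its call in the triple mutant was lost without any 1 array but wild-type array 3 (adjusted p = 0.0529 to 0.263).

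AT1G62500 moved the other way. Its signal was 9.47, 8.91, 10.64 and 9.70 in wild type, 11.35 and 11.63 in the double mutant and 12.43 and 12.28 in the triple mutant. It rose by 2.67 ± 0.44 in the triple mutant (limma adjusted p = 0.023). The double mutant difference was 1.81 ± 0.44 (adjusted p = 0.418). It was 2.30 against wild-type arrays 1 and 2, where it passed (limma adjusted p = 0.0073, and 0.0205 with the replicate block), and 1.32 against arrays 3 and 4 (adjusted p = 0.211). Its triple mutant call was lost without wild-type array 1 or 4 or any mutant array (adjusted p = 0.0502 to 0.217).

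AT5G01870 shared the wild-type pattern of the 3 genes described first. It lay at 10.34 and 10.17 on wild-type arrays 1 and 2, at 12.61 and 11.99 on arrays 3 and 4, at 9.14 and 10.73 in the double mutant and at 8.98 and 8.0 in the triple mutant. The triple mutant arrays were below all wild-type arrays, and the double mutant arrays overlapped them. Its triple mutant difference of -2.79 ± 0.81 did not pass (limma adjusted p = 0.114). When set against a single wild-type pair, it was -3.81 for arrays 3 and 4 (adjusted p = 0.0256) and -1.77 for arrays 1 and 2, which did not pass (adjusted p = 0.0765). With array weights it was -3.36 and passed (adjusted p = 0.0131).

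The members brightest over all arrays, AT2G10940 and AT2G45180, did not pass in either mutant with all wild-type arrays. AT2G45180 lay at 14.38 and 14.56 on wild-type arrays 1 and 2, at 12.07 and 11.75 on arrays 3 and 4, and between 12.63 and 12.84 on the mutant arrays. Its triple mutant difference was -1.75 against the first pair (limma adjusted p = 0.0036) and 0.81 against the second (adjusted p = 0.0567), so its direction turned with the wild-type arrays used. For AT2G10940 these values were -1.52 and 0.33. AT3G18280 differed by 1.38 ± 0.37 in the triple mutant (adjusted p = 0.092), with all mutant arrays above all wild-type arrays, and passed against arrays 3 and 4 alone (adjusted p = 0.0355) and against arrays 1 and 2 alone (adjusted p = 0.0445).

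**Figure D4:**
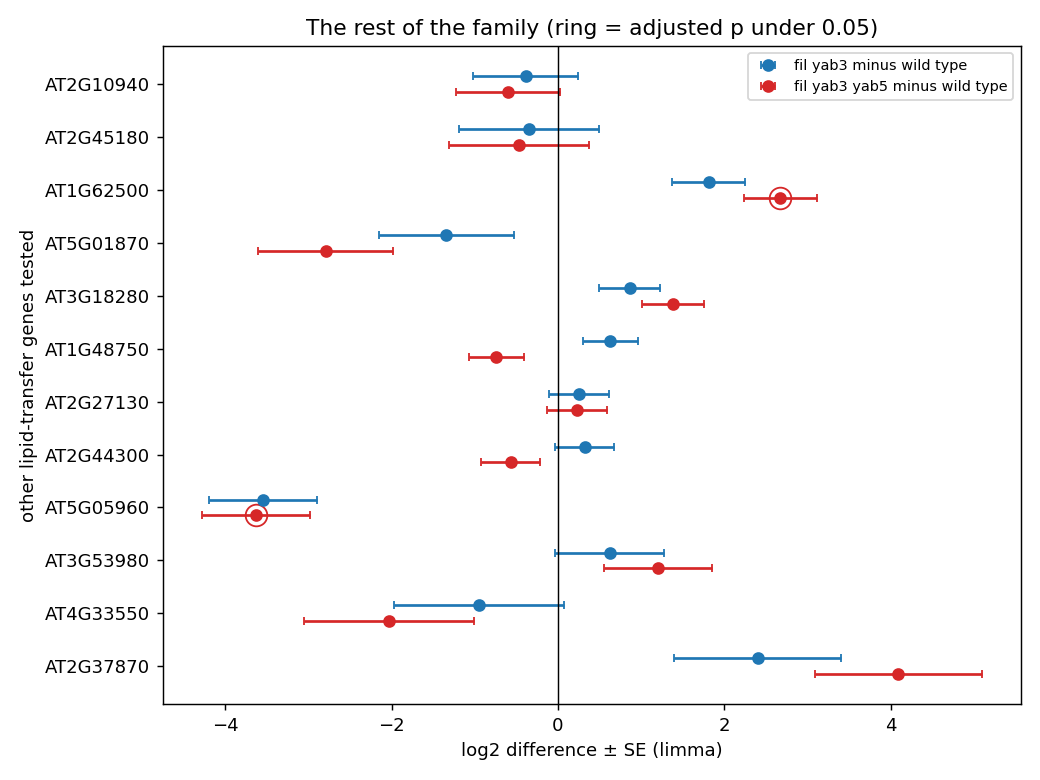
Log2 differences from wild type with SE from limma for the 12 other tested lipid-transfer genes, in fil yab3 (blue) and fil yab3 yab5 (red), with rings for an adjusted p under 0.05. Only AT5G05960, at -3.63, and AT1G62500, at 2.67, carry a ring, both in fil yab3 yab5.

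Genes of wax, cutin and the epidermis were looked up because lipid-transfer proteins are often made there, but few could be matched to a probe set here. Of 44 cuticle and wax genes, 3 had a probe set naming no other gene and 1 was tested, and of 10 epidermal genes 1 was. AT5G61590, which encodes the wax repressor DEWAX, lay at 9.50 and 10.65 on wild-type arrays 1 and 2 and between 4.62 and 5.80 on all other arrays. Wild-type arrays 1 and 2 thus stood apart from the rest. The triple mutant arrays, at 5.08 and 4.75, were below all wild-type arrays and the double mutant arrays overlapped them, and no difference passed (limma adjusted p = 0.773 in the double and 0.309 in the triple mutant). WSD1, a wax ester synthase, was below 4 on all arrays but triple mutant array 1, at 4.42, and SHN3, an activator of wax and cutin genes, did not exceed 2.23. CR4, also called ACR4, a receptor kinase of the epidermis, averaged 6.42 ± 0.58 (n = 4) for wild type, 6.16 ± 0.52 (n = 2) for the double and 5.86 ± 0.05 (n = 2) for the triple mutant, and its triple mutant difference of -0.56 ± 0.39 did not pass (adjusted p = 0.491). A single epidermal gene cannot stand for the epidermis, so the part of a change in epidermal RNA in the lipid-transfer signals was not tested.

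Neighbouring genes were examined, since AT4G22490 lies among other lipid-transfer genes. Its nearest named neighbours of the family, AT4G22470 and AT4G22460, lay 3 and 6 annotated genes away and did not exceed 2.31 on any array, wild type included. On its other side AT4G22560 lay between 6.54 and 7.60 on all arrays. Of the 40 nearest named genes around AT4G22490, 21 were tested and none was called in any comparison with limma. Around AT5G59330, 20 were tested and 1 was called, AT5G59650, which lay 43 genes away and differed by -2.34 ± 0.34 in the triple mutant (adjusted p = 0.013), where 3.87% of all tested probe sets were called. AT5G59650 was at 5.50 on wild-type array 1 and on both double mutant arrays, and at 2.85 and 4.0 in the triple mutant. Its triple mutant fold change is thus a bound, at least 3.38-fold lower. The AT5G59650 call was lost without triple mutant array 1 (-1.76), and with the filter at 6 the gene was not tested. The nearer AT5G59350, at 3 genes away, differed by -1.19 ± 0.33 in the triple mutant (adjusted p = 0.101).

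Around AT5G55450, 27 were tested, and 3 were called lower and 1 higher in the triple mutant and none in the double mutant. Over all tested probe sets 1.66% were called lower and 2.22% higher in the triple mutant. This range of 20 named genes on either side was set after values of nearer neighbours had been seen. AT5G55400, 5 genes away, lay at 9.55, 9.14, 8.46 and 8.79 in wild type, 8.64 and 8.45 in the double mutant and 7.26 and 7.51 in the triple mutant, a difference of -1.60 ± 0.31 in the triple mutant (limma adjusted p = 0.038). AT5G55570, 19 genes away, differed by -5.29 ± 0.72 (adjusted p = 0.011) and AT5G55220, 24 genes away and among the genes most like AT5G55450, by -1.04 ± 0.22 (adjusted p = 0.048). AT5G55790, 42 genes away, was at 2.1 on all wild-type and double mutant arrays and at 4.88 and 6.27 in the triple mutant. It was called higher there than in wild type (limma adjusted p = 0.0028) and than in the double mutant (adjusted p = 0.01), the only call among these 27 between the mutants. AT5G55790 passed the filter only through the triple mutant arrays, and its other arrays held 1 value without spread. These calls are therefore given as a description. With the filter at 6 or without either triple mutant array it was not tested. The AT5G55220 call was lost without any 1 array (limma adjusted p = 0.0532 to 0.392), and the AT5G55400 call without any array but wild-type array 3 (adjusted p = 0.0538 to 0.299). The AT5G55570 call was lost without a filter (limma adjusted p = 0.0501). It was also lost without triple mutant array 1 (-5.16) or 2 (-5.41). The nearest named genes of AT5G55450 did not all follow it: AT5G55530, 14 genes away, lay between 9.76 and 10.51 on all arrays, with triple mutant arrays at 10.31 and 10.20.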

How the data were processed

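RNA of 8 samples was measured on 1 Affymetrix array each. The authors deposited log2 values, and the submitters' processing notes name GCRMA and R 2.7.2. This method models background from probe sequence and normalizes arrays by quantiles. Dim probe sets often repeat a lowest value that differs between probe sets, such as 2.16 for AT4G22490 and 3.03 for AT5G55450. That the scale is log2 was inferred from the range of values.

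After 64 control probe sets were set aside, 22746 were left, of which the 13888 brighter than log2 4 on 2 or more arrays were tested. Of these, 7497 name 1 gene, 273 several and 6118 no gene that could be matched here. Names and gene order came from TAIR10.1 through the gene identifiers. Where several probe sets named a gene, the brightest stood for it. limma 3.58.1 in R 4.3.3 (lmFit, eBayes, two-sided) was fitted to all 8 arrays as 3 groups, with Benjamini-Hochberg adjustment over all tested probe sets and a threshold of 0.05. A group at or below a log2 value of 4 on all its arrays gave a bound, the brighter mean against 4. The fit was tested on simulated data.

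The genes described, the lists and the tests were chosen with earlier results of these data known. The list of 91 lipid-transfer genes was compiled from general knowledge of the family. Membership was not checked against gene descriptions, so the list may take in related genes beyond the lipid-transfer proteins described above. Named were the 3 genes, YABBY genes, listed lipid-transfer genes that passed or were among the 5 brightest, listed cuticle and epidermal genes, the 3 nearest named genes on either side, and the 5 genes with the highest r. Replicate numbers are shared between groups, but deviations of same-numbered arrays correlated at only -0.096 to 0.004, and the arrays were not treated as paired. With so few arrays, and with the wild-type pairs apart, this check could not exclude a pairing. Python 3.11.15 and matplotlib 3.10.9 drew the figures. Precision is limited by how few arrays each genotype has. Alternatives were other filters, normalizations, variance models and weights, fewer groups, either wild-type pair, a replicate block and leaving out each array.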

Additional observations from a re-analysis of the deposited data

Results flagged for a closer look

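In 45 named genes the highest and lowest of the 4 wild-type arrays were compared with the rest, and 3 genes had an array far from the other 3. By chance about 1 in 20 groups would show this if the arrays did not fall into pairs. AT4G22530, a neighbour of AT4G22490, lay at 2.27 on wild-type array 1 and at 3.51 to 3.62 on the others, all below the level needed for testing. WSD1 lay at 2.11 on wild-type array 4 and at 2.19 to 2.20 on the others, a small gap near the floor. AT5G55530, a neighbour of AT5G55450, lay at 10.37 on wild-type array 3 and at 9.76 to 9.81 on the others. None of the 3 lipid-transfer genes described first had such an array, but the rule looks for 1 array apart and cannot flag a split into pairs. The wild-type arrays of AT5G55450 split in that way, at 7.52 and 7.50 against 10.07 and 10.19.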

How the results depend on the processing

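For the 3 lipid-transfer genes, both mutants stayed below wild type in every alternative run. AT5G55450 in the double mutant moved from -2.06 to -3.37 against wild-type arrays 3 and 4 and to -0.75 against arrays 1 and 2 or with the replicate block, and in the triple mutant from -5.79 to -7.10, -4.48 and -4.48. Leaving out 1 array gave -9.82 to -7.45 for AT4G22490 in the double mutant, -7.87 to -5.68 for AT5G59330 in the triple mutant, and -2.37 to 0.00 and -1.07 to 1.12 for these genes between the mutants. The cause was not tested for any of these.

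Counts of probe sets called depended on the fit. In the double mutant 23 became 12 without a filter, 14 with only the groups compared, 49 against wild-type arrays 3 and 4, 1790 against arrays 1 and 2, 950 with the replicate block and 0 to 26 without 1 array (0 without double mutant array 1, with 433 at an unadjusted p under 0.05 in limma). In the triple mutant 538 became 1826 with array weights, 305 with only the groups compared, 1265 and 3366 against the pairs, 2500 with the replicate block and 46 to 578 without 1 array. Between the mutants 94 became 144 without a filter, 55 with a filter at 6, 284 with array weights, 53 with only those groups, 143 and 149 with 1 wild-type pair, and 11 to 94 without 1 array. Among the 12 other lipid-transfer genes, the count called lower in the double mutant went from 0 to 3 with the replicate block and 3 against wild-type arrays 1 and 2. In the triple mutant it went from 1 to 0 without a filter or with only the groups compared, 2 with array weights or against arrays 3 and 4, 3 with the block or against arrays 1 and 2, and 0 to 1 without 1 array. The replicate block leaves wild-type arrays 3 and 4, whose numbers no mutant shares, without weight, so its differences equal those against arrays 1 and 2.

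Other directions that turned belonged to differences that did not pass with all wild-type arrays. In the double mutant YAB5, AT2G10940 and AT2G45180 did pass against wild-type arrays 1 and 2. Their differences there were -1.53, -1.31 and -1.63 (limma adjusted p = 0.0202, 0.0125 and 0.0078). YAB5 in the double mutant was 0.40 against wild-type arrays 3 and 4. AT2G10940 was 0.53 in the double and 0.33 in the triple mutant there, and 0.11 in the double mutant with array weights. AT2G45180 was 0.93 and 0.81 there, 0.39 and 0.28 with array weights, and -0.83 to 0.11 in the double mutant without 1 array (0.04 and 0.11 without wild-type array 1 or 2). Between the mutants, without 1 array AT5G05960 ran from -0.70 to 0.53 (0.44 without double mutant array 1, 0.53 without triple mutant array 1) and YAB3 from -0.04 (without double mutant array 1) to 1.59. The YAB3 call was lost in 11 of 18 alternatives in the double and 3 of 18 in the triple mutant.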

Other observations

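Further lipid-transfer genes stood out in mutants and were chosen after their values were seen. AT2G37870 lay at 2.63 to 2.77 on the wild-type arrays, at 7.00 and 3.19 in the double mutant and at 7.84 and 5.72 in the triple mutant. The triple mutant exceeded wild type at least 6.87-fold, but the difference of 4.09 ± 1.00 did not pass (limma adjusted p = 0.074). It passed with some alternative fits and not with others. AT2G37870 exceeded 4 only on mutant arrays, so it met the filter through the groups where it was high. Its wild-type arrays were close to the floor. Its values are therefore given as a description, and nothing is read from those passes. The gene is also among the other tested family genes counted above. AT4G12490 lay at 9.38 on double mutant array 2 and at 3.12 or below on the other 7 arrays, so its high signal rests on 1 array and it was not tested. AT1G48750 was higher in the double than in the triple mutant, at 10.07 and 9.11 against 8.44 and 8.0, with a difference of -1.37 ± 0.38 from double to triple mutant (adjusted p = 0.302).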
